A study of Mus musculus with 14 samples.

Results

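The 10 genes described here, Sfrp1, Sfrp2, Frzb, Dkk2, Dkk3, Wif1, Axin2, Notum, Nkd1 and Lef1, encode inhibitors of Wnt signalling or proteins made in response to it, and were chosen by name from the 35449 genes counted in the series. The series counted transcript 3′ ends in 14 primary mouse cell lines, each started from an embryo at E13.5. The H3f3a targeted (KO) lines were 3 neurosphere lines and 5 embryonic fibroblast (MEF) lines, and the wild-type (WT) lines were 3 neurosphere lines and 3 MEF lines, none of them treated. H3f3a encodes the histone variant H3.3, and the series title calls the allele knockout-first, a design in which a cassette is meant to cut the transcript short. Neurospheres, floating cultures that hold neural stem cells and precursors, came from heads, and MEFs, connective tissue cells, from the body without head and internal organs. Both kinds of culture can hold several cell types, and in bulk samples fewer cells of a type and less RNA per cell cannot be told apart.

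Wnt proteins are secreted signals that bind Frizzled receptors and Lrp5 or Lrp6 at the cell surface, which stabilises β-catenin and lets it act in the nucleus with TCF and LEF factors. Secreted antagonists act outside the cell: the Sfrp proteins (Frzb among them) and Wif1 bind the Wnt proteins themselves, whereas Dkk2, a Dickkopf protein, binds Lrp5 and Lrp6. Axin2, Nkd1 and Notum are widely used readouts of β-catenin signalling that also restrain it, and in embryos Wnt signals help to set the position of limb and brain tissue.

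The libraries held 1669406 to 3296178 counts assigned to genes, so that 1 count equalled 0.304 to 0.599 CPM, the unit of level used below (counts scaled to library size, on 1 scale over all 14 libraries). H3f3a averaged 51.9 ± 23.0 CPM in KO and 2150 ± 232 CPM in WT neurospheres (SD, n = 3 each), and 15.3 ± 4.71 CPM in KO (n = 5) and 1039 ± 330 CPM in WT MEFs (n = 3), as labelled. The 10 neural stem and precursor markers summed to 5737 to 10240 CPM in neurosphere lines and 76.5 to 176.4 CPM in MEF lines. The 10 fibroblast markers summed to 8.73 to 107.3 CPM in neurosphere lines and 14050 to 22240 CPM in MEF lines. In each cell type, 1 KO and 1 WT line stood apart from the rest: KO neurosphere 3 and WT neurosphere 2, and KO MEF 3 and WT MEF 2. These 4 lines were named by an earlier analysis of the same data, which labelled the MEF pair Hoxd13-high and the neurosphere pair Hoxa2-positive. The levels of Hoxd13 and Hoxa2 in these lines are thus not a separate finding. Where a called difference of a member rests on one of the 4 lines, its value without that line is given. Whether MEF and neurosphere lines came from the same embryos is not stated in the labels, and the tests treat all lines as independent.

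Of the 10 genes, Sfrp1, Dkk2 and Dkk3 have a single transcript in the deposited files, and the reads of Sfrp2, Frzb and Notum were likewise all assigned to 1 transcript each. Sfrp1 lies on the plus strand of chromosome 8 (23411502 to 23449632, GRCm38), Sfrp2 on the plus strand of chromosome 3 (83766321 to 83774316) and Frzb on the minus strand of chromosome 2 (80411970 to 80447625). Dkk2 is on the plus strand of chromosome 3 (132085292 to 132180304), Dkk3 on the minus strand of chromosome 7 (112116017 to 112159057) and Wif1 on the plus strand of chromosome 10 (121033960 to 121100650). Lef1 also lies on the plus strand of chromosome 3 (131110471 to 131224356), and Nkd1 on the plus strand of chromosome 8 (88521354 to 88594884). Axin2 (plus strand, 108920349 to 108950783) and Notum (minus strand, 120653788 to 120661175) are both on chromosome 11. For Axin2, 77.3% of the reads went to Axin2-203, a processed transcript annotated as non-coding, and 19.9% to the protein-coding Axin2-201. Both end in the same last exon of 1515 bases (108949269 to 108950783), so that 3′ tags can hardly separate them, and the gene sum is used below.

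RefSeq promoter windows, from 250 bases before to 50 after the start, were found for 7 of the 10 genes. Those of 4 genes are shown because their levels differ between cell types or single lines. Capitals mark CTTTG, the core letters bound by TCF and LEF factors, and TATAAA, the TATA box letters, searched on both strands; these motifs do not overlap each other here. CTTTG or its complement occurs in 53.9% of all 32851 windows and TATAAA in 13.6%.
Sfrp2, chr3:83766071-83766370, plus strand, GRCm38.p6: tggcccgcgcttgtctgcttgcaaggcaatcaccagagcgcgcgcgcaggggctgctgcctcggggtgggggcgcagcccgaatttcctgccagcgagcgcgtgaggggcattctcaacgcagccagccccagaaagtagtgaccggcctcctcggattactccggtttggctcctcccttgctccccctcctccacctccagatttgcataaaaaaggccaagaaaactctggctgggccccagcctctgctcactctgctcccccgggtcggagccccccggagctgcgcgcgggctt
Dkk2, chr3:132085042-132085341, plus strand, GRCm38.p6: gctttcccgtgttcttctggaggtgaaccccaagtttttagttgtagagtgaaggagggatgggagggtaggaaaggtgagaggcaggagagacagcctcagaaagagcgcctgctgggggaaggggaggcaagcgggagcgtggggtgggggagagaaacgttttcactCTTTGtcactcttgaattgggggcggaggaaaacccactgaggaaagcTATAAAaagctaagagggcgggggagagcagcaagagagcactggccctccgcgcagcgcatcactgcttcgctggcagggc
Wif1, chr10:121033754-121034053, plus strand, GRCm38.p6: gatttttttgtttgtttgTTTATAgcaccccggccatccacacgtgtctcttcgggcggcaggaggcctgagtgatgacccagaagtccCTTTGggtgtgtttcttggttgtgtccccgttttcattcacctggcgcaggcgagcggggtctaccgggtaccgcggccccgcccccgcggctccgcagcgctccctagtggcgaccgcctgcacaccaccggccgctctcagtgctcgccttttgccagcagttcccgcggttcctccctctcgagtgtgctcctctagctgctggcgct
Axin2, chr11:108920099-108920398, plus strand, GRCm38.p6: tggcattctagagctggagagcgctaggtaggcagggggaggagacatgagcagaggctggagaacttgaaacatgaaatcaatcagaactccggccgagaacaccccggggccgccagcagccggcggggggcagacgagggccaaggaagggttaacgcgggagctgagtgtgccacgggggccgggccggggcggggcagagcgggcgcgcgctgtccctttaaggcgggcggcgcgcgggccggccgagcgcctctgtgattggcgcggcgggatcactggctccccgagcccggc
Counted from the RefSeq start that each window is built on, Dkk2 holds CTTTG at position -80 and TATAAA at -32. For Wif1 this start is not the first base of the gene given above. Wif1 holds CTTTG at -161 and, on the other strand, TATAAA at -232. Neither motif occurs in the Sfrp2 and Axin2 windows. The longer CTTTGAT, present in 3.73% of all windows, was found in 0 of the 10 windows of the 7 genes. These matches are descriptions of the letters only.

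The comparison of neurospheres with MEFs asked which cell type carries each gene. In both genotypes Axin2 was higher in neurospheres, about 10-fold, while the secreted antagonists Dkk2, Dkk3 and Sfrp1 were lower and the Dkk genes close to absent. Nkd1 was higher in neurospheres in KO lines and Sfrp2 lower in both genotypes, though the Sfrp2 call in WT lines rested on 1 MEF line. Of the 8 genes with enough counts to test, 2 were higher and 4 lower in KO lines, where 25.4% of all 11413 genes tested were higher and 26.2% lower by the edgeR quasi-likelihood test (adjusted p under 0.05). In WT lines 1 was higher and 4 lower, against 20.8% higher and 20.8% lower among 11080 genes. The share of members that were higher was thus near the background. Of the 8 log2 differences 4 were positive and 4 negative in each genotype. Their median, -1.90 in KO and -1.14 in WT lines, falls in the gap between these and describes no single gene. The median of all genes tested was -0.01 in KO and 0.02 in WT lines. In WT lines Sfrp1, Sfrp2, Dkk2 and Dkk3 met the filter on low counts in the MEF group alone. Axin2, Nkd1, Lef1 and Frzb met it there in the neurosphere group alone. In KO lines Sfrp2, Dkk2, Dkk3 and Frzb met it in the MEF group alone, and Lef1 only with lines of both groups. The counts and calls of these genes are thus not independent of the filter. Mitochondrially encoded transcripts took 12.9% to 16.8% of counts in neurosphere lines and 5.27% to 6.15% in MEF lines, and leaving them out gave the same members called.

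**Figure D1:**
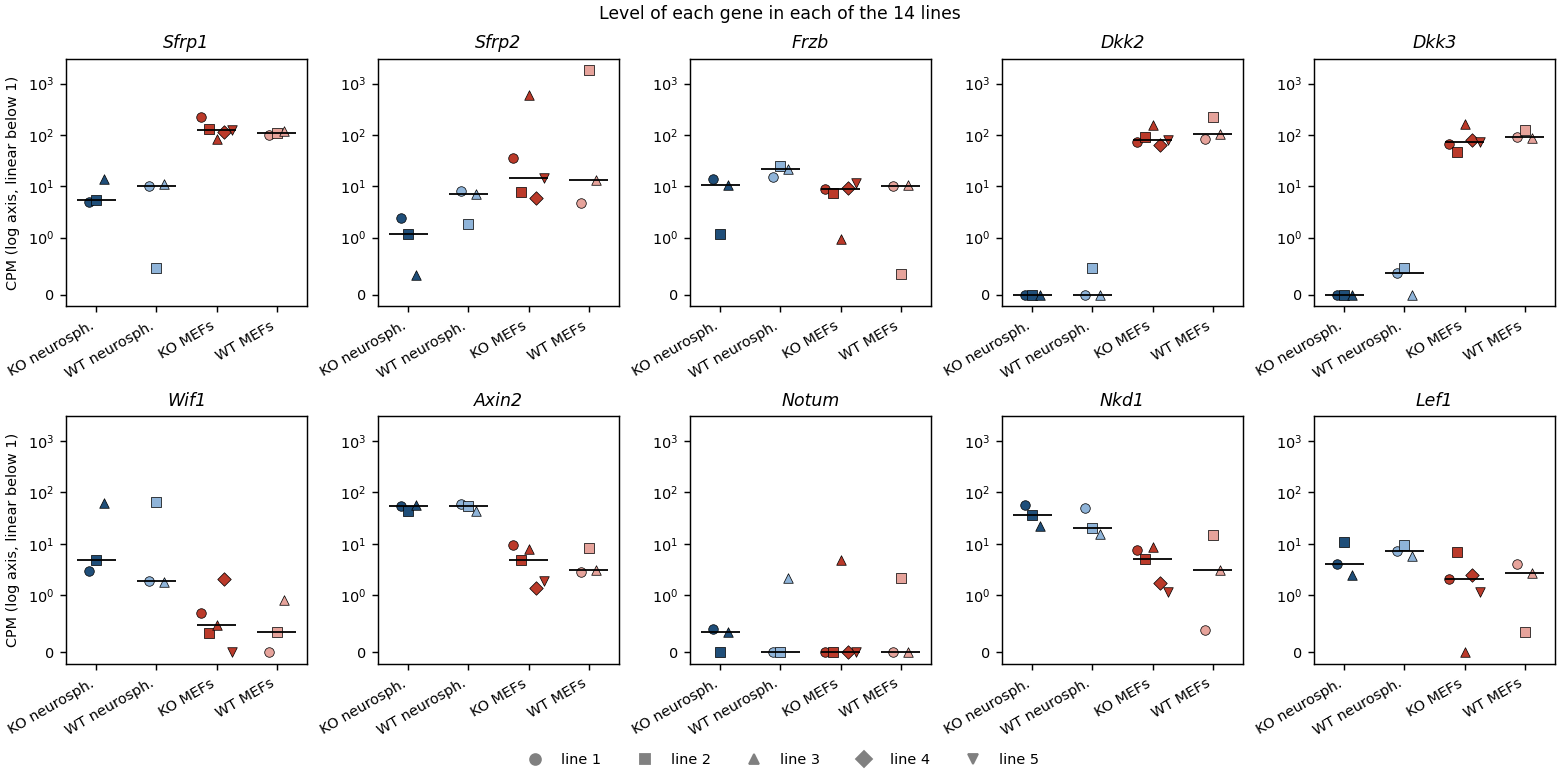
Level of each of the 10 genes (CPM, log axis that is linear below 1) in KO and WT neurospheres and in KO and WT MEFs; each symbol is 1 line and each bar the group median. Axin2 lies between 43.7 and 58.0 CPM in the 6 neurosphere lines, above the 8 MEF lines, while Sfrp2 spans 4.75 to 1827 CPM within MEFs.

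Axin2, a scaffold of the complex that degrades β-catenin and itself a target of the pathway, had 55.2, 43.7 and 55.9 CPM in KO neurospheres 1 to 3 and 9.30, 4.79, 7.75, 1.39 and 1.88 CPM in KO MEFs 1 to 5. The WT lines had 58.0, 53.6 and 43.95 CPM in neurospheres and 2.77, 8.23 and 3.04 CPM in MEFs. Every neurosphere line lay above every MEF line; such separation held for 49.7% of all genes tested in KO lines and 57% in WT lines. The log2 difference was 3.39 in KO lines (SE 0.49, 95% interval 2.29 to 4.48, edgeR adjusted p = 0.000389), a 10.5-fold higher level. In WT lines it was 3.48 (SE 0.44, 95% interval 2.46 to 4.51, edgeR adjusted p = 0.000904), 11.2-fold. The 6 neurosphere lines were also close to each other: their log2 range was 0.40, and 3.09% of 12534 genes with a mean of at least 1 CPM had a smaller range. Among the 3812 genes within 2-fold of the mean level of Axin2 that share was 4.43%. In the 8 MEF lines the log2 range of Axin2 was 2.11, larger than in 83.0% of 12366 genes and in 68.9% of the 2676 genes within 2-fold of its mean level there.

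Nkd1, which binds Dishevelled and dampens the signal inside the cell, had 56.8, 35.9 and 22.3 CPM in KO neurospheres and 7.58, 5.13, 8.71, 1.73 and 1.13 CPM in KO MEFs. WT lines had 50.4, 20.5 and 15.2 CPM in neurospheres and 0.396, 15.04 and 3.04 CPM in MEFs. Neurosphere and MEF lines did not overlap in either genotype, but WT MEF 2 nearly reached WT neurosphere 3. The log2 difference was 3.01 in KO lines (SE 0.56, edgeR adjusted p = 0.00176). In WT lines it was 2.24 (SE 0.95, 95% interval -0.01 to 4.48) and missed the threshold (edgeR adjusted p = 0.0986). Without WT MEF 2 it was 3.94 and passed (edgeR adjusted p = 0.00937), and it also passed without both lines that stand apart (4.14, edgeR adjusted p = 0.0108).

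Lef1, a nuclear partner of β-catenin, had 4.12, 10.8 and 2.44 CPM in KO neurospheres and 2.07, 6.84, 0, 2.42 and 1.13 CPM in KO MEFs, which overlapped. WT neurospheres had 7.25, 9.31 and 5.67 CPM and WT MEFs 3.96, 0.358 and 2.74 CPM, without overlap. The log2 difference was 1.13 in KO lines (edgeR adjusted p = 0.291) and 1.66 in WT lines (edgeR adjusted p = 0.0831), and neither passed. Notum, an enzyme that removes the lipid of Wnt proteins, had 24 reads in the whole series and was not tested. Its reads were 1, 0 and 1 in KO neurospheres, 0, 0 and 6 in WT neurospheres, 10 in KO MEF 3 and 6 in WT MEF 2. The 6 other MEF lines had 0 reads, which allows up to 3 counts (0.913 to 1.19 CPM) in each, by counting error alone.

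Sfrp1, a secreted protein that binds Wnt proteins, had 4.94, 5.39 and 13.96 CPM in KO neurospheres and 220.8, 127.8, 82.8, 112.8 and 126.9 CPM in KO MEFs. Among WT lines the values were 10.3, 0.466 and 11.3 CPM in neurospheres and 100.6, 109.5 and 119.6 CPM in MEFs. All neurosphere lines lay far below all MEF lines. The log2 difference was -3.98 in KO lines (SE 0.46, edgeR adjusted p = 0.000109), 15.8-fold lower, and -3.84 in WT lines (SE 0.70, edgeR adjusted p = 0.00480), 14.3-fold lower. The lowest line, WT neurosphere 2, rests on 1 count.

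Dkk2 had 0 counts in all 3 KO neurosphere lines and 73.0, 89.2, 158.3, 64.4 and 81.3 CPM in KO MEFs 1 to 5. Against a floor of 3 counts over the neurosphere group it was at least 207.6-fold lower. In WT lines it had 0, 1 and 0 counts in neurospheres and 83.2, 222.3 and 105.9 CPM in MEFs, a ratio of MEFs over neurospheres of 1040 with a counting interval of 186.2 to 41100 (95%, exact). Dkk3, a Dickkopf family member whose part in Wnt signalling is less clear, had 0 counts in KO neurospheres and 65.4, 46.5, 162.2, 78.2 and 72.7 CPM in KO MEFs, at least 186.5-fold lower. It had 1, 1 and 0 counts in WT neurospheres and 89.5, 126.0 and 86.1 CPM in WT MEFs, a ratio of MEFs over neurospheres of 379.6 with a counting interval of 104.8 to 3140. Both genes were at or near 0 in every neurosphere line and at 46.5 CPM or more in every MEF line. The edgeR adjusted p ran from 2.5e-05 to 0.00021 over both genes and both genotypes, for genes that entered the test through their MEF counts.

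Sfrp2, another secreted Wnt-binding protein, had 2.47, 1.20 and 0.349 CPM in KO neurospheres and 35.1, 7.86, 587.7, 5.88 and 14.7 CPM in KO MEFs, without overlap. In WT lines it had 8.02, 1.86 and 7.09 CPM in neurospheres and 4.75, 1827 and 13.1 CPM in MEFs, and WT MEF 1 lay below 2 neurosphere lines. The log2 difference was -6.56 in KO lines (SE 2.17, edgeR adjusted p = 0.0299) and -3.52 without KO MEF 3 (edgeR adjusted p = 0.00597). In WT lines it was -6.70 (SE 2.27, edgeR adjusted p = 0.0499), and without WT MEF 2 it was -0.65 and not called (edgeR adjusted p = 0.468). Leaving out any 1 of the 3 neurosphere lines also ended the call, with an edgeR adjusted p of 0.0764 to 0.121 in KO lines and 0.127 to 0.136 in WT lines.

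Frzb, also called Sfrp3, had 13.6, 1.20 and 10.5 CPM in KO neurospheres and 8.96, 7.52, 0.968, 9.35 and 11.7 CPM in KO MEFs. WT neurospheres had 15.3, 24.7 and 22.0 CPM and WT MEFs 10.3, 0.358 and 10.7 CPM. KO groups overlapped and WT groups did not. The log2 difference was 0.17 in KO lines (95% interval -1.41 to 1.76, edgeR adjusted p = 0.855) and 1.55 in WT lines (95% interval -0.31 to 3.40, edgeR adjusted p = 0.155). Wif1, a secreted Wnt inhibitor, had 2.88, 4.79 and 60.7 CPM in KO neurospheres, and 1.91, 63.8 and 1.77 CPM in WT neurospheres. MEF lines had 0 to 2.08 CPM, from 0 to 6 counts, and its count was too low to be tested between cell types with the filter used. Its higher neurosphere values are those of KO neurosphere 3 and WT neurosphere 2, and the other 4 lines had 1.77 to 4.79 CPM.

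**Figure D2:**
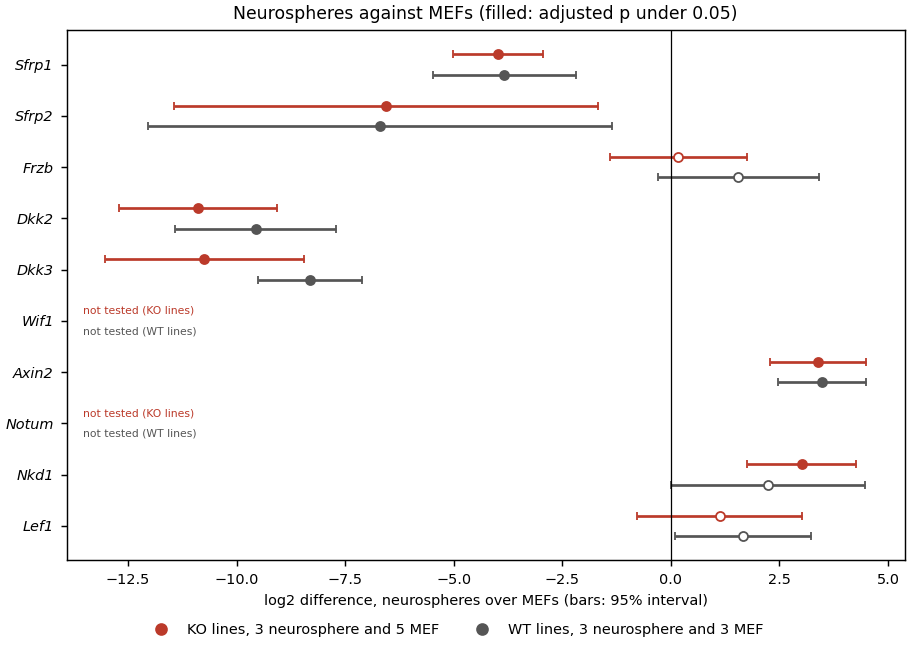
Log2 difference of neurospheres over MEFs for each gene, with 95% intervals, in KO lines (3 and 5) and WT lines (3 and 3); filled symbols passed an adjusted p of 0.05. Dkk2, Dkk3 and Sfrp1 lie left of 0 and Axin2 at 3.39 and 3.48, whereas the Sfrp2 intervals span -11.45 to -1.68 and -12.04 to -1.36.

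Within MEFs, KO MEF 3 and WT MEF 2 carried most of the differences between lines. Sfrp2 had 587.7 CPM in KO MEF 3 and 1827 CPM in WT MEF 2, against 4.75 to 35.1 CPM in the other 6 MEF lines. Only 2 of 12366 genes had a larger log2 range than Sfrp2 over the 8 lines. Frzb went the other way, at 0.968 CPM in KO MEF 3 and 0.358 CPM in WT MEF 2, against 7.52 to 11.7 CPM elsewhere. Dkk2 and Dkk3 were highest in the same pair: Dkk2 at 158.3 and 222.3 CPM (others 64.4 to 105.9) and Dkk3 at 162.2 and 126.0 CPM (others 46.5 to 89.5). Sfrp1 did not share this, with 82.8 CPM in KO MEF 3, 109.5 CPM in WT MEF 2 and 100.6 to 220.8 CPM elsewhere. Axin2 had 7.75 and 8.23 CPM in KO MEF 3 and WT MEF 2, and KO MEF 1 was higher, at 9.30 CPM. Nkd1 was highest in the pair, at 8.71 CPM in KO MEF 3 and 15.04 CPM in WT MEF 2 (others 0.396 to 7.58), and Lef1 lowest, at 0 and 0.358 CPM (others 1.13 to 6.84).

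Other genes of the pathway stood apart in these 2 MEF lines too. Of the R-spondins, secreted proteins that strengthen Wnt signals, Rspo2 and Rspo3 were high in both. Rspo2 had 138.9 CPM in KO MEF 3 and 322.2 CPM in WT MEF 2 (others 0.346 to 9.90), and Rspo3 311.3 and 392.0 CPM (others 10.9 to 19.8). Rspo1 was high in WT MEF 2 alone, at 12.5 CPM, with 0.484 CPM in KO MEF 3 (others 0 to 2.26). Rspo4 had 0 CPM in every MEF line. The receptor gene Fzd4 had 53.3 CPM in KO MEF 3 and 93.1 CPM in WT MEF 2 (others 7.53 to 14.7), and Fzd8 had 75.0 and 102.4 CPM (others 9.41 to 15.6). The list of 5 limb position genes, Hoxd13, Hoxa13, Tbx5, Tbx4 and Pitx1, summed to 384.4 CPM in KO MEF 3 and 415.6 CPM in WT MEF 2, against 21.5 to 53.9 CPM in the other MEF lines, and each of the 5 was highest in this pair. Hoxd13, a gene of the most distal limb by which this pair was labelled, alone had 208.6 and 248.8 CPM there (others 4.15 to 32.5). The 10 fibroblast markers summed to 22240 CPM in KO MEF 3 and 16990 CPM in WT MEF 2, beside 14050 to 21850 CPM, so their sum did not set the pair apart. Single fibroblast markers did, in both directions: Col3a1 had 4873 and 4119 CPM (others 956.4 to 2037) and Lum 111.8 and 105.6 CPM (others 2.77 to 27.6), whereas Thy1 had 128.8 and 103.1 CPM (others 556.7 to 746.8).

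The sums of several lists of other cell types moved with the pair, some mostly through a single gene. The 4 meninges markers summed to 265.3 CPM in KO MEF 3 and 190.8 CPM in WT MEF 2, against 48.2 to 98.6 CPM elsewhere. Foxc1 made up most of this, at 209.6 and 174.7 CPM (others 9.91 to 42.8). Zic1 was lower in the pair, at 4.84 and 2.15 CPM (others 24.95 to 48.9), and Foxd1 and Crabp2 were raised in KO MEF 3 alone. The 5 cartilage markers summed to 281.7 and 346.2 CPM, against 97.8 to 182.2 CPM. Most of that was Sox9, at 228.5 and 338.7 CPM (others 85.5 to 181.5). Comp had counts in the pair alone. Acan and Col2a1 were highest in KO MEF 3 but within the range of the others in WT MEF 2. Lower in the pair were the 3 smooth muscle markers, with 1357 CPM in KO MEF 3 and 1381 CPM in WT MEF 2 against 2654 to 4243 CPM, and the 5 neuron markers, with 25.7 and 14.3 CPM against 69.7 to 128.8 CPM. So were the 4 endothelium markers, at 6.29 CPM in KO MEF 3 and 5.73 CPM in WT MEF 2 against 11.56 to 32.1 CPM. The 8 brain position genes also summed lower, to 66.8 and 49.8 CPM against 83.2 to 134.7 CPM. Among them Emx2, En1 and Hoxb2 were lowest in the pair, whereas Dlx2 was highest, at 18.9 and 26.5 CPM (others 4.48 to 17.8). Within these lists the neuron markers Dcx and Snap25 had 0 counts in all 8 MEF lines. The 5 macrophage markers did not move with the pair, at 10.7 CPM in KO MEF 3 and 138.2 CPM in WT MEF 2. The part of these genes in the levels of the members was not tested.

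**Figure D3:**
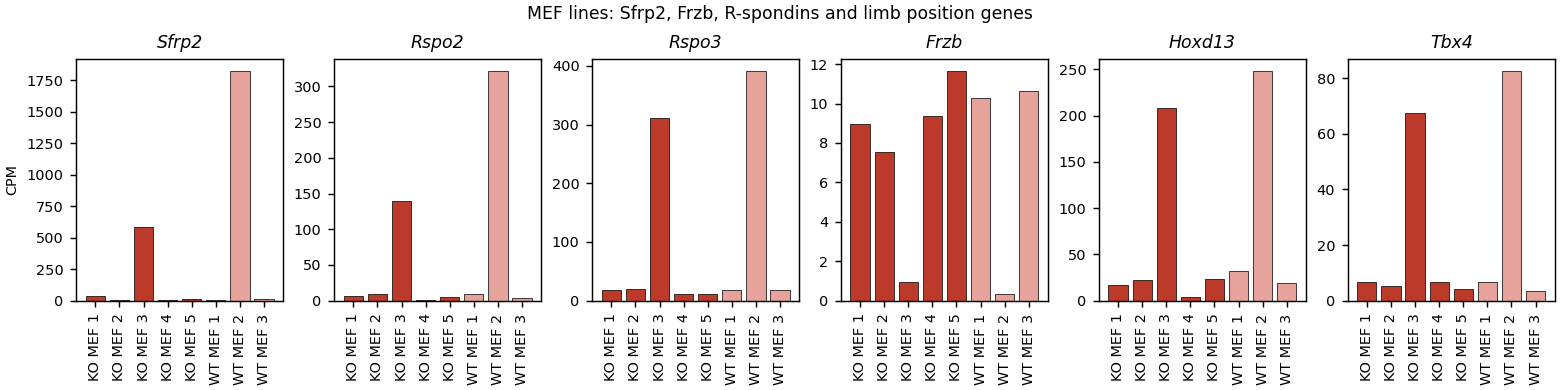
CPM of Sfrp2, Rspo2, Rspo3, Frzb, Hoxd13 and Tbx4 in the 5 KO and 3 WT MEF lines, 1 bar per line on axes that start at 0. KO MEF 3 and WT MEF 2 are the highest lines in every panel except Frzb, where they are the lowest.

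Among neurospheres, KO neurosphere 3 and WT neurosphere 2 shared a high level of Wif1, 60.7 and 63.8 CPM, against 1.77 to 4.79 CPM in the other 4 lines. Its log2 range was larger than that of 98.4% of genes. Hoxa2 and Hoxb2, genes of the hindbrain, moved with Wif1. Hoxa2, by which this pair was labelled, had 17.1 CPM in KO neurosphere 3 and 19.1 CPM in WT neurosphere 2. Hoxb2 had 9.43 and 13.51 CPM, and both genes had 0 counts in the other 4. Otx2, a gene of forebrain and midbrain, had 0.349 CPM in KO neurosphere 3 and 0 CPM in WT neurosphere 2, against 20.9 to 61.8 CPM in the other 4. Of the rest of the list, En1 was lowest in the pair, at 0.698 and 0 CPM (others 1.06 to 11.98). En2 was too, at 1.40 and 0 CPM (others 1.77 to 4.58), and Dlx2 had 0 CPM in both (others 0.382 to 2.84). Gbx2, at 3.84 and 5.12 CPM, lay within the 3.82 to 19.1 CPM of the others, and so did Emx2. The 8 brain position genes used here summed to 59.4 CPM in KO neurosphere 3 and 60.1 CPM in WT neurosphere 2, within the 53.5 to 104.6 CPM of the others, so the sum did not set these lines apart. The other members did not share this pattern. Sfrp1 had 13.96 CPM in KO neurosphere 3, the highest value, and 0.466 CPM in WT neurosphere 2, the lowest. Axin2 was level, at 55.9 and 53.6 CPM beside 43.7 to 58.0 CPM. Neuron markers summed to 17.1 CPM in KO neurosphere 3 and 27.9 CPM in WT neurosphere 2, against 46.4 to 103.0 CPM elsewhere. Most of that was Tubb3, at 12.9 and 16.3 CPM (others 18.7 to 70.7). Dcx, at 3.49 and 8.38 CPM, overlapped the others (2.48 to 30.5). The cartilage list summed to 628.7 and 601.2 CPM, against 823.1 to 1438 CPM. Nearly all of that was Sox9, and Acan, Matn1 and Comp had 0 counts in every neurosphere line. The sum thus describes Sox9 rather than the cartilage list. The 4 oligodendrocyte lineage markers summed to 14.3 CPM in KO neurosphere 3 and 9.78 CPM in WT neurosphere 2, against 18.6 to 82.6 CPM. No single marker of this list set the pair apart. Pdgfra had 1.05 and 7.45 CPM (others 4.96 to 24.3) and Cspg4 13.3 and 2.33 CPM (others 4.19 to 77.6). Sox10 and Mbp were at 0 CPM in the pair and in some other lines. The part of these markers and of the brain position genes in the Wif1 level was not tested.

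**Figure D4:**
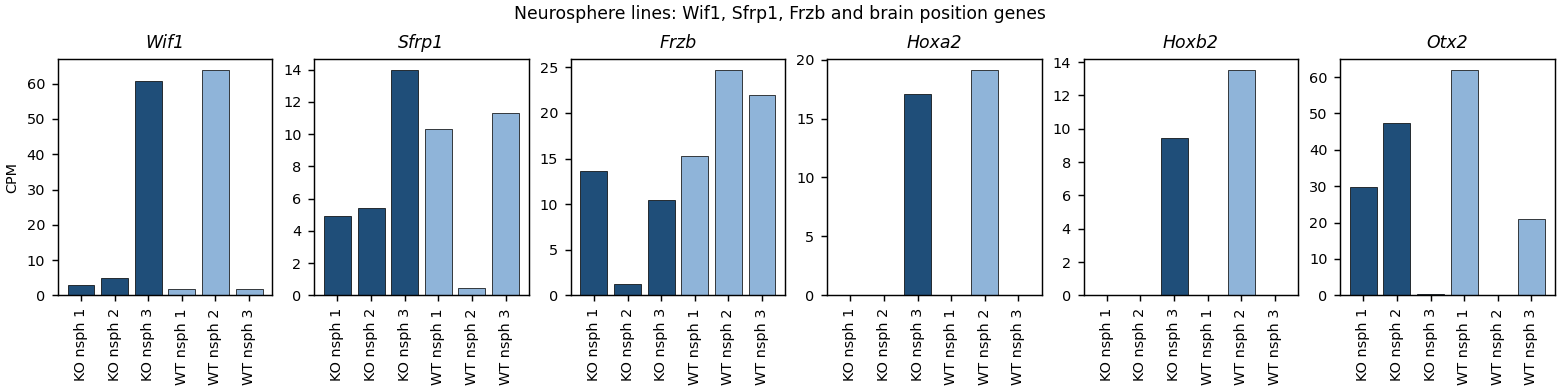
CPM of Wif1, Sfrp1, Frzb, Hoxa2, Hoxb2 and Otx2 in the 3 KO and 3 WT neurosphere lines (nsph), 1 bar per line on axes that start at 0. Wif1, Hoxa2 and Hoxb2 are high in KO neurosphere 3 and WT neurosphere 2, the lines where Otx2 is at or near 0, while Sfrp1 differs between these 2 lines.

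The comparison of KO with WT MEFs asked whether targeting H3f3a changes these genes in fibroblasts. No member passed: 0 of the 7 tested, against 0.00927% of 10785 genes, H3f3a alone. At an unadjusted p under 0.05 there were 0 members by edgeR (1.62% of all genes), and DESeq2 also called 0. Wif1, Notum and Lef1 had too few counts to test. For each of the 7 tested genes KO and WT lines overlapped (1.84% of all genes did not), and 3 log2 values were positive and 4 negative (median -0.25, all genes 0.00). The antagonist Sfrp1 averaged 134.2 ± 51.7 CPM in KO and 109.9 ± 9.51 CPM in WT MEFs (log2 0.28, 95% interval -0.33 to 0.90). Dkk2 averaged 93.3 ± 37.5 CPM in KO and 137.1 ± 74.7 CPM in WT MEFs (log2 -0.56, 95% interval -1.43 to 0.30), and Dkk3 85.0 ± 44.8 and 100.5 ± 22.1 CPM (log2 -0.25, 95% interval -1.08 to 0.59). For Sfrp2, KO MEF 3 and WT MEF 2 set the group means of 130.3 ± 256.0 CPM in KO and 614.9 ± 1050 CPM in WT MEFs, and the medians were 14.7 and 13.1 CPM. Its log2 value of -2.26 (SE 2.01) turned to 3.82 without WT MEF 2, and to 0.80 without both lines that stand apart.

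The feedback genes Axin2 and Nkd1, and the antagonist Frzb, were low in MEFs and imprecise. Axin2 averaged 5.02 ± 3.50 CPM in KO and 4.68 ± 3.08 CPM in WT MEFs (log2 0.09, 95% interval -1.43 to 1.60). Nkd1 averaged 4.86 ± 3.39 CPM in KO and 6.16 ± 7.80 CPM in WT MEFs (log2 -0.37, 95% interval -2.46 to 1.73). Frzb averaged 7.69 ± 4.04 CPM in KO and 7.10 ± 5.84 CPM in WT MEFs (log2 0.12, 95% interval -1.73 to 1.98). The intervals of all 3 include a 2-fold difference in either direction, and the direction of each turned when single lines were left out.

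In neurospheres the same question gave 0 of 6 tested members, against 0.00941% of 10624 genes, again H3f3a alone. There were 0 members at an unadjusted p under 0.05 by edgeR (2.14% of all genes) and 0 called by DESeq2; Sfrp2, Dkk2, Dkk3 and Notum had too few counts to test. With no filter on low counts Sfrp2 had a log2 value of -2.06 at an unadjusted p of 0.0306 (edgeR adjusted p = 0.952). Axin2 was the most precise, at 51.6 ± 6.82 CPM in KO and 51.8 ± 7.19 CPM in WT neurospheres (log2 0.01, SE 0.23, 95% interval -0.52 to 0.54). This interval leaves out a difference of 2-fold. Nkd1 averaged 38.4 ± 17.4 CPM in KO and 28.7 ± 19.0 CPM in WT neurospheres (log2 0.43, 95% interval -0.73 to 1.59), and Lef1 5.78 ± 4.41 and 7.41 ± 1.83 CPM (log2 -0.39, 95% interval -1.76 to 0.98). Frzb was the 1 tested member whose groups did not overlap: 13.6, 1.20 and 10.5 CPM in KO and 15.3, 24.7 and 22.0 CPM in WT neurospheres. Its log2 value was -1.24 (SE 0.63, edgeR adjusted p = 0.999), and 7.2% of all genes tested had non-overlapping groups. For Sfrp1 (log2 0.16, 95% interval -1.82 to 2.15) and Wif1 (log2 0.10, 95% interval -3.76 to 3.95) the spread between lines was larger than any difference between genotypes. The Wif1 value was -2.56 without KO neurosphere 3 and 3.67 without WT neurosphere 2.

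**Figure D5:**
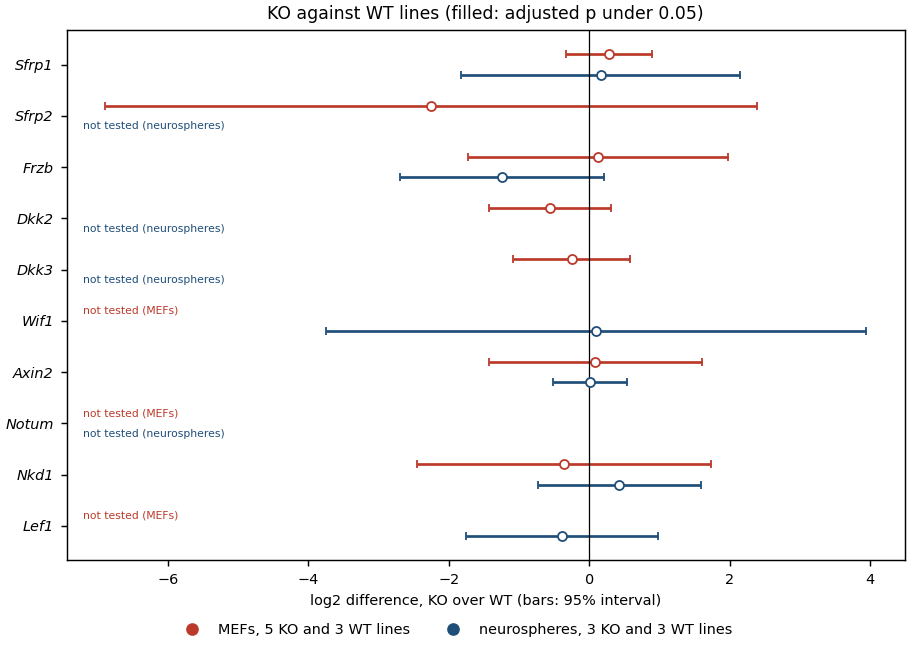
Log2 difference of KO over WT lines for each gene with 95% intervals, in MEFs (5 KO, 3 WT) and neurospheres (3 KO, 3 WT); open symbols did not pass an adjusted p of 0.05. No symbol is filled, and the narrowest interval is that of Axin2 in neurospheres, -0.52 to 0.54.

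Whether the genotype difference itself differed between cell types was tested over all 14 lines. Of 9 members tested 0 were called, with a background of 0% of 12113 genes by edgeR (366 genes, 3.02%, and 0 members at an unadjusted p under 0.05, and 3 called by DESeq2, no member among them). The interaction of Axin2 was -0.09 (SE 0.73, 95% interval -1.65 to 1.47) and that of Frzb -1.38 (SE 1.17, 95% interval -3.90 to 1.15), on the log2 scale. For Sfrp2 the SE was 4.92, so that the design says little about this gene.

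The wider pathway was described with a list of 89 other Wnt genes. Of its members 56 were tested between cell types in KO lines, where 17 were higher and 11 lower in neurospheres, and 52 in WT lines, with 17 higher and 7 lower. All-gene shares were 51.6% in KO lines and 41.6% in WT lines called in either direction. In both genotypes Wnt7a, Wnt7b, Ndp, Porcn, Fzd9, Fzd10, Draxin and Tnfrsf19 met the filter on low counts in the neurosphere group alone. Rspo3 met it in the MEF group alone. The counts of called pathway genes, and the calls of these genes, are thus not independent of the filter. Among ligands, Wnt7b averaged 63.7 ± 42.2 CPM in KO neurospheres and 0.366 ± 0.629 CPM in KO MEFs, and 36.3 ± 4.28 and 0.358 ± 0.620 CPM in the WT lines. Wnt7a had 0 counts in all MEF lines and was at least 41.2-fold higher in KO and 18.1-fold higher in WT neurospheres (floor of 3 counts over the MEF group). Ndp, encoding norrin, a ligand of Fzd4, averaged 38.4 ± 10.3 CPM in KO neurospheres and 0.194 ± 0.433 CPM in KO MEFs, and 31.8 ± 9.83 and 0.467 ± 0.414 CPM in the WT lines. Porcn, which attaches the lipid to Wnt proteins, was also higher in neurospheres (log2 1.49 in KO and 2.60 in WT lines). Rspo3 was lower, at 0.274 ± 0.475 CPM in KO neurospheres and 74.5 ± 132.4 CPM in KO MEFs, and 1.52 ± 2.32 and 142.6 ± 216.0 CPM in the WT lines. KO MEF 3 and WT MEF 2 set these MEF means. The Rspo3 log2 difference in WT lines was -6.62 (edgeR adjusted p = 0.0212), and -3.65 without WT MEF 2 (0.0226), -9.28 without WT neurosphere 2 (0.0373) and -6.29 without both (0.00173).

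Of 17 receptor genes tested in KO lines 3 were higher and 5 lower in neurospheres, and of 16 in WT lines also 3 and 5. The higher ones included Fzd3, at 367.0 ± 63.6 CPM in KO neurospheres and 18.9 ± 4.94 CPM in KO MEFs, and 445.4 ± 93.4 and 20.1 ± 3.48 CPM in the WT lines. Fzd9 (log2 4.98 in KO lines) and Fzd10 were the other two. Fzd10 had 2 counts in each MEF group, which gives a ratio of 238.4 in KO lines (95% counting interval 65.3 to 1979) and 79.95 in WT lines (21.7 to 666.6). Fzd9 had 2 counts in WT MEFs, a ratio of 72.0 (19.5 to 601.1). Among other antagonists Draxin, a secreted Wnt inhibitor and axon guidance protein, averaged 37.7 ± 39.9 CPM in KO and 59.7 ± 50.6 CPM in WT neurospheres, with 1 count in KO MEFs and 0 in WT MEFs. Znrf3, a membrane ubiquitin ligase that removes Frizzled receptors and is itself a Wnt target, was higher in neurospheres by a log2 of 2.02 in KO and 1.58 in WT lines, and Kremen1, a Dkk receptor, by 1.29 and 1.99. Apc, part of the degradation complex with Axin2, had 777.4 ± 191.7 CPM in KO neurospheres and 156.0 ± 11.9 CPM in KO MEFs, and 622.6 ± 233.4 and 170.0 ± 28.3 CPM in the WT lines. Gsk3b, the kinase of that complex, was higher by 0.77 in KO and 0.98 in WT lines on the log2 scale, and Dvl3 by 0.92 in WT lines (0.59 and not called in KO lines). In the nucleus Tle4, a corepressor, was higher by 3.20 in KO and 3.60 in WT lines and Pygo1, a β-catenin cofactor, by 2.54 and 2.52. Pygo2 was lower by a log2 of -0.83 in WT lines and missed the threshold in KO lines (-0.62). Tnfrsf19, a receptor gene known as a Wnt target, averaged 50.8 ± 15.0 CPM in KO neurospheres and 0.925 ± 1.33 CPM in KO MEFs, and 56.4 ± 15.0 and 0.543 ± 0.480 CPM in the WT lines. In WT lines the call of Rspo3 ended without WT neurosphere 1 or 3, and that of Porcn without any 1 of the 3 neurosphere lines. The call of Pygo2 ended without WT MEF 1, WT MEF 3 or WT neurosphere 1, and that of Dvl3 without WT MEF 1 or WT neurosphere 1. Without both WT lines that stand apart, Porcn (edgeR adjusted p = 0.0633) and Pygo2 (0.0533) were not called.

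Between KO and WT lines 0 of 49 pathway genes tested in MEFs and 0 of 52 in neurospheres were called by edgeR, with 0 at an unadjusted p under 0.05 in each. The 3 with the smallest p in MEFs were Wnt4 (25.7 ± 14.9 CPM in KO, 12.4 ± 7.49 CPM in WT, log2 1.05), Amer1 (log2 -0.32) and Tcf7l1 (log2 -0.32). In neurospheres they were Tle1 (54.2 ± 20.5 CPM in KO, 89.5 ± 33.2 CPM in WT, log2 -0.71), Dvl3 (log2 -0.50) and Wls (log2 -0.58), each with an edgeR adjusted p of 0.999. In neurospheres 36 of the 52 log2 values were negative, with a median of -0.15. Over all genes tested there, 5177 of 10624 were negative, with a median of 0.01. The 52 values come from the same lines and are not independent of each other. Whether their share of negative values differs from that of all genes was not tested.

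The genes most like each member by Pearson r of log2(CPM + 1) over lines are given as a description, since lines of a cell type share the patterns above. Over the 8 MEF lines and 8439 genes, Sfrp2 was nearest to Nfib (r = 0.991), Bcl9l (0.991) and Cxcl15 (0.989). Dkk2 was nearest to Tfap2a (0.984), Dkk3 to March8 (0.994) and Sfrp1 to Hdac4 (0.948). Over the 6 neurosphere lines and 8625 genes, Wif1 was nearest to Mybbp1a (0.999) and the hindbrain gene Hoxb3 (0.995), and Frzb to Gas7 (0.998). Axin2 was nearest to Lsm14b (0.986) and Nkd1 to Cnp (0.985).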

How the data were processed

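RNA libraries of 14 lines were made with a forward QuantSeq 3′ kit, per the labels' protocols. The deposited expected counts per transcript, and the TPM used as an alternative, come from Salmon 1.1.0, per the submitters' processing notes; the transcript set is not given in the sources used here. Identifiers were matched to GENCODE M21 (GRCm38): 115560 of 116945 transcripts by version and length, 385 by identifier alone. The 1000 others held 0.251% to 0.425% of reads and were left out. Expected counts were summed per gene and rounded. Groups follow the cell type and genotype given in the labels. edgeR 4.0.16 in R 4.3.3 was used: TMM, default low-count filter by group, robust quasi-likelihood test, Benjamini-Hochberg adjustment over all genes tested, threshold 0.05. Each comparison was fitted on its own groups and the interaction on all 14 lines. Printed CPM share 1 TMM scale over all libraries. Alternatives used DESeq2 1.42.0, limma 3.58.1 on log2(TPM + 1), other scalings and filters, a replicate block and left-out lines. The tests were checked on simulated counts.

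The members and gene lists were chosen with earlier results of these data known. Besides the members, up to 3 called genes per role with the largest difference between cell types in WT lines were named, the 3 with the smallest p in each KO comparison, and for likeness genes with a mean of at least 10 CPM; pathway genes shown by line were chosen after their values were seen. 1 gene of the brain position list is not reported here. Intervals of ratios, and floors, hold counting error alone, because PCR duplicates carry no molecular identifiers here.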

Additional observations from a re-analysis of the deposited data

Results flagged for a closer look

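KO MEF 3 lay far from the other 4 KO MEF lines, by Dixon's gap test, for 4 of the 12 sets of values examined. The limit used flags about 1 in 20 sets by chance only where values are normally distributed, which was not checked for these CPM. This line had also been named earlier, from the same data, as one that stands apart. Sfrp2 had 587.7 CPM in this line, against 5.88 to 35.1 CPM in the other 4. Dkk2 had 158.3 CPM against 64.4 to 89.2 CPM, and Dkk3 162.2 CPM against 46.5 to 78.2 CPM. Notum had 4.84 CPM, from 10 counts, against 0 in the others, a case in which the test flags any gene with reads in a single line. The 4 values come from 1 library and are not independent of each other.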

How the results depend on the processing

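Under every setting run, Axin2 was called higher and Sfrp1, Dkk2 and Dkk3 lower in neurospheres in both genotypes, and Nkd1 higher in KO lines. The number of members called ran from 5 to 7 in KO and from 4 to 6 in WT lines, and was 0 in each genotype comparison and in the interaction. The Sfrp2 call ended in WT lines with no filter on low counts (adjusted p = 0.184), with TPM (0.225), without WT MEF 2 (0.468) and without the lines that stand apart (0.756), and in KO lines with no filter (0.105); DESeq2 gave it no adjusted p. Nkd1 was called in WT lines by DESeq2, without WT MEF 2 and without the lines that stand apart. Wif1 passed the filter in few settings; it was called higher in KO neurospheres with no filter, with all 14 lines in 1 fit and without KO neurosphere 1, and in WT lines in the 14-line fit (adjusted p = 0.0218) but not with no filter (0.128). Among pathway genes in WT lines, calls ended with TPM for Gsk3b (0.108) and Wnt7a (0.0589), with no filter for Rspo3 (0.105) and with the replicate block for Pygo2 (0.0628). TPM moved the median of all genes by -0.12 in KO lines. Depth limits Notum, Lef1 and, in MEFs, Axin2, Nkd1 and Wif1.

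Over all genes, the KO against WT count of 1 in neurospheres became 7 with DESeq2, 2 with no filter, 3 without the lines that stand apart, and 0 to 2 when 1 line was left out (0 without WT neurosphere 2 or KO neurosphere 1). In MEFs it became 3 without the lines that stand apart, and the interaction count of 0 became 3 with DESeq2. The cause was not tested.

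No close pairing by replicate number was seen: correlations of same-numbered lines ran from -0.60 to 0.23. These values cannot show whether lines came from the same embryos. With a replicate block the MEF count over all genes was 0 and the KO cell type count 3295 in place of 5892, the WT Sfrp2 difference was -2.35 (adjusted p = 0.437), and directions turned for Sfrp2 (2.12), Frzb (-0.046) and Nkd1 (0.99) in MEFs and for the Sfrp2 interaction (-1.83). The block changed no other call of a member.

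Directions of differences that were not called turned as follows, on the log2 scale, with causes not tested. With TPM, KO against WT was -0.11 for Axin2 and 0.012 for Nkd1 in MEFs and -0.13 for Axin2 in neurospheres, Frzb was -0.056 between KO cell types, and interactions were 0.0045 (Sfrp1), -0.39 (Sfrp2), 0.45 (Dkk2), 0.22 (Dkk3) and 0.42 (Wif1). With all 14 lines in 1 fit Axin2 in neurospheres was -0.0042. Without the lines that stand apart, KO against WT was 0.80 for Sfrp2, -0.16 for Frzb and 1.09 for Nkd1 in MEFs, and -1.05 for Sfrp1, -0.029 for Axin2 and 0.19 for Lef1 in neurospheres; Frzb was -0.28 between KO cell types, and interactions were -2.76 (Sfrp2), 0.30 (Dkk2), -0.57 (Nkd1) and 0.26 (Lef1). When single lines were left out, KO against WT ran from -5.29 to 3.82 for Sfrp2, -0.42 to 0.55 for Frzb, -0.28 to 0.77 for Axin2 and -0.90 to 1.40 for Nkd1 in MEFs. In neurospheres it ran from -0.53 to 0.60 for Sfrp1, -2.56 to 3.67 for Wif1 and -0.10 to 0.11 for Axin2. Frzb between KO cell types ran from -0.31 to 0.65. Interactions ran from -0.85 to 0.28 for Sfrp1, -5.89 to 3.16 for Sfrp2, -1.89 to 0.56 for Dkk2 and -3.19 to 2.98 for Wif1. They ran from -0.75 to 0.28 for Axin2, -0.94 to 1.46 for Nkd1 and -1.29 to 0.27 for Lef1.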
